A study of Mus musculus with 6 samples.

Results

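Potassium channel genes were taken as the genes whose symbol starts with Kcn, the naming root shared by the pore-forming subunits of potassium channels and many of the proteins that attach to them. Antisense transcripts named after a channel were left out, which removed 4 of 99 rows. Of the 43432 genes in the deposited table, 95 were members. The rule used names only and no measured value. By family, the members were 40 voltage-gated pore subunits, 17 auxiliary subunits and regulators, 15 inward rectifiers, 14 2-pore channels, 8 calcium- or sodium-activated channels and 1 long noncoding RNA, Kcnq1ot1, which carries the root but encodes no channel.

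The study fed wild-type C57/Bl6J mice a high-fat diet (HFD) to model obesity-related atrial fibrillation, and compared the RNA of their atria with that of mice on a control diet. The 3 obese mice were fed the HFD and the 3 lean mice the control chow, both for 10 weeks from 6 weeks of age, with no transgene and no drug in either group. RNA came from right and left atrial tissue. The sample titles and the columns of the table give the diets in this way, whereas the treatment field of the labels gives every mouse the other diet. The titles were followed, so every direction below holds only if the titles are right. The labels number the mice within each diet, and the p-values measure the spread between these 6 mice.

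Potassium channels return the membrane of a heart muscle cell to its resting potential after each beat. In the general scheme of atrial currents, transient outward and ultrarapid currents carry early repolarization and delayed rectifiers finish it. Inward rectifiers and 2-pore channels hold the resting potential. How much each current carries in mouse atria was not measured here. The acetylcholine-gated current, opened by the vagus nerve through muscarinic receptors, is far stronger in atria than in ventricles. Shortened or uneven atrial repolarization is a well-known setting for atrial fibrillation.

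Each value is a normalized count, the read count of a gene divided by 1 scaling factor per library. Between 15874251 and 28971508 reads lay on genes in each library, and 3 reads, taken as the smallest signal, were worth 2.05 to 3.41 normalized counts (counting error only). Mitochondrial genes took 30.7% of the reads of lean mouse 2 and 19.5% to 24.4% in the others. Of the 24679 genes with a read, 15275 had a mean of at least 10 over the 6 mice and were tested with limma on log2(normalized count + 1). Differences below are on that scale, obese minus lean, which understates the change of low genes. Adjusted p is over all genes tested (Benjamini-Hochberg). With 3 mice per diet, the smallest two-sided p of an exact permutation test is 0.1.

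Of the 95 members, 47 were tested. A further 28 had more than 3 reads in at least 1 mouse but a mean under 10, 9 never exceeded 3 reads, and 11 had no read in any mouse. In lean atria, 5 genes held 76% of the summed member counts. Compared per kb of exon, the order in lean atria began with Kcnk3 at 2270 normalized counts per kb, which encodes the acid-sensitive 2-pore channel TASK-1. Kcnj3, a subunit of the acetylcholine-gated channel, followed at 1860. Kcnh2, the rapid delayed rectifier, stood at 925, Kcnj5, the partner of Kcnj3, at 907, and Kcng2, a modifier subunit that forms no channel alone, at 781. Next came Kcnj11 at 363 (the pore of the ATP-sensitive channel), Kcnq1 at 335 (the slow delayed rectifier) and Kcnip2 at 212 (the KChIP2 subunit of the transient outward channel). Per kb, the lean mice overlapped between Kcnk3 and Kcnj3, Kcnh2 and Kcnj5, Kcnj5 and Kcng2, and Kcnj11 and Kcnq1, so these neighbours in the order did not differ beyond their spread. The exon length used for Kcnj11, 3677 bases, is longer than the whole deposited gene (46098725 to 46099897 on chromosome 7). If reads were counted over that span alone, its level per kb is higher than given. Its place in the order and its overlap with Kcnq1 are therefore uncertain.

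**Figure D1:**
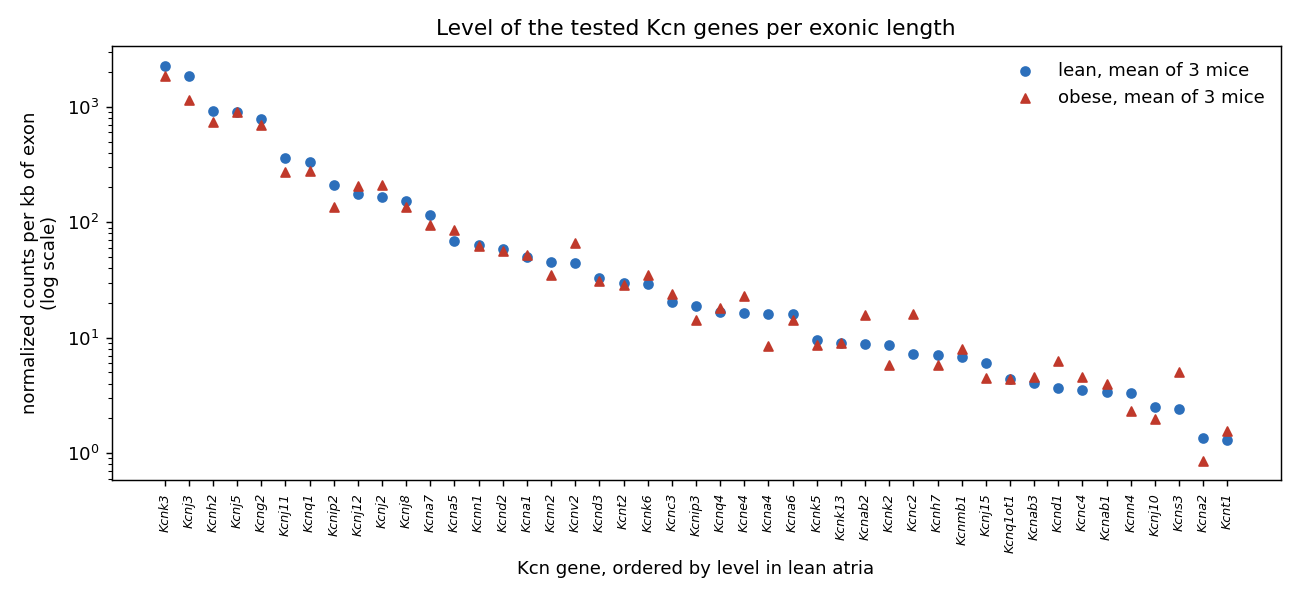
Mean level of 45 tested Kcn genes in normalized counts per kb of exon (log scale), ordered by level in 3 lean mice (circles), with the mean of 3 obese mice as triangles. Kcnk3 and Kcnj3 stand highest in both groups, and the circle lies visibly above the triangle for Kcnj3, from 1860 to 1140 per kb. The place of Kcnj11 is uncertain, because the exon length used for it is longer than the deposited gene.

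No member had an adjusted p under 0.05, where 0.746% of all genes tested did (114 of 15275 in limma). At an unadjusted p under 0.05 there were 9 of 47 members (19.1%), against 12.2% of all genes tested. Of these 9, 7 were lower in obese atria (5.55% of all genes were) and 2 higher (6.66% of all genes were). The 7 were Kcnip2, Kcnj3, Kcnj11, Kcnh2, Kcna4, Kcnq1 and Kcnn2, and the 2 were Kcnc2 and Kcnab2. The same 7 lay wholly below the lean mice without overlap, where 9.17% of all genes tested did, and 3 members lay wholly above (Kcnc2, Kcnab2 and Kcne4), where 8.86% did. The median difference was −0.08 over the members and 0.005 over all genes tested, with 28 members below zero and 19 above. By family the median was −0.30 over 8 inward rectifiers, −0.12 over 21 voltage-gated pore subunits, −0.08 over 5 channels of the 2-pore family, −0.06 over 5 calcium- or sodium-activated channels and 0.16 over 7 auxiliary subunits and regulators.

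Count tests on the recovered reads gave like differences, and only DESeq2 changed which members had an adjusted p under 0.05. With edgeR's quasi-likelihood test no member had an adjusted p under 0.05 (0.570% of all genes did) and 10 had an unadjusted p under 0.05 (12.2% of all genes did). With DESeq2, 3 members passed, Kcnj3, Kcnip2 and Kcnc2, with adjusted p of 0.00254, 0.0103 and 0.0245, where 3.08% of all genes did, and 9 had an unadjusted p under 0.05 (11.3% of all genes did).

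**Figure D2:**
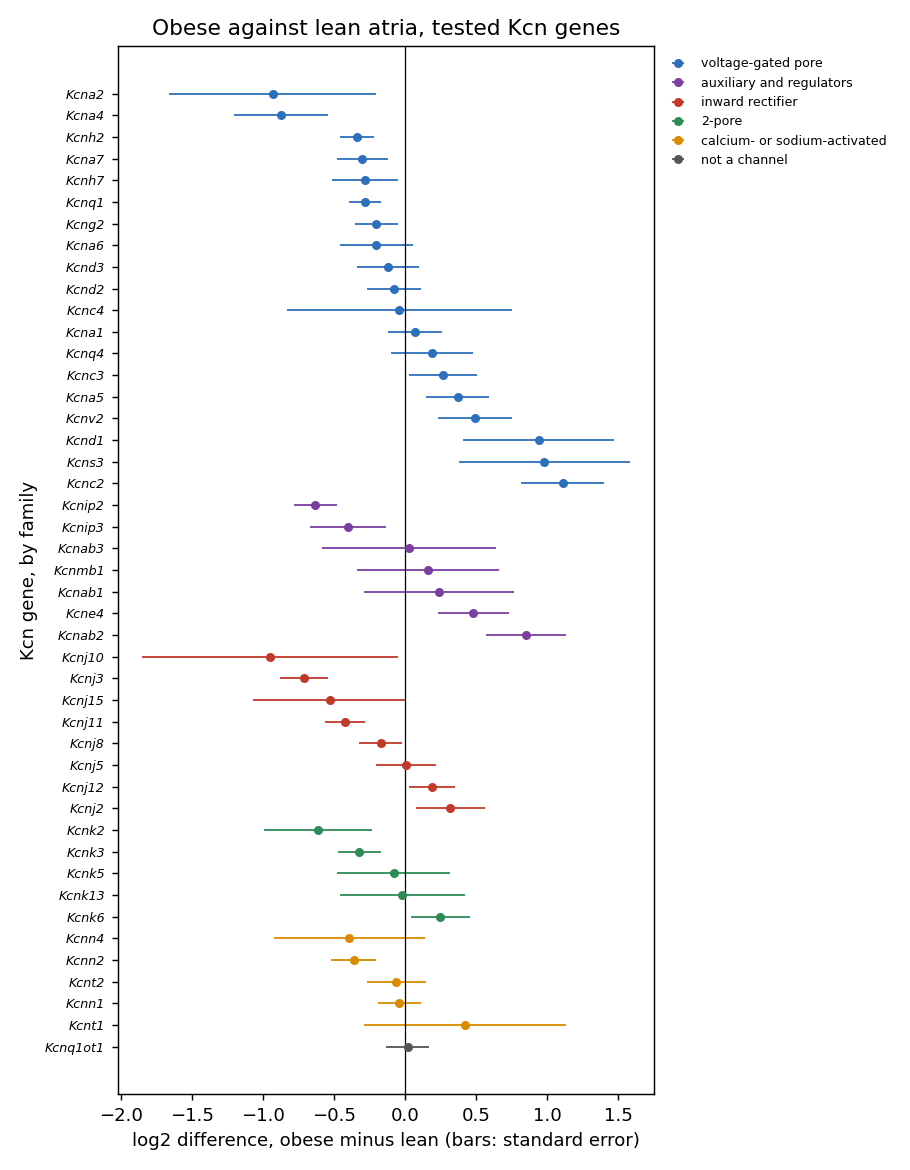
Difference of 45 tested Kcn genes between obese and lean atria on the log2 scale, grouped by family, with bars for the standard error from limma. Points left of zero were lower in obese atria. Kcnc2 lies farthest right at 1.11, and the low-count members (such as Kcnj10 and Kcna2) have the widest bars.

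The members with the highest counts leaned lower. In bins of level chosen after the values were seen, 8 members had a mean of at least 1000 normalized counts, and 4 of these 8 were lower at an unadjusted p under 0.05 and 0 higher. Among all 2707 genes at that level, 5.95% were lower and 10.5% higher. The median difference of the 8 members was −0.30 and that of the 2707 genes 0.02. Among the 16 members from 100 to 1000, 2 were lower and none higher, where 5.98% of all genes at that level were lower and 6.83% higher. Among the 23 from 10 to 100, 1 was lower and 2 were higher, where 4.5% of all genes were lower and 4.01% higher.

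Summed over all 95 members, the normalized counts were 29441, 33737 and 33021 on the HFD and 36879, 37999.7 and 42778 on the control diet, in the order of mice 1, 2 and 3. Every obese sum lay below every lean sum. As a share of all reads the groups overlapped, with 0.195% in obese mouse 2 and 0.192% in lean mouse 2, whereas relative to the reads on nuclear genes alone they did not overlap. Without Kcnj3, the obese sums were 23275, 26742 and 28293 and the lean sums 28719.6, 28565 and 31213, still without overlap but closer together. Without the 5 highest members, they ran from 8109 to 9502 in obese and from 9231 to 9595 in lean atria, and overlapped.

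Kcnj3 encodes GIRK1 (Kir3.1), which joins GIRK4, the product of Kcnj5, in the acetylcholine-gated channel. It lies on chromosome 2 of GRCm38 from 55435970 to 55598145. Kcnj3 had 6166, 6995 and 4727 normalized counts on the HFD (obese mice 1, 2 and 3) and 8159, 9434 and 11565 on the control diet (lean mice 1, 2 and 3). Values of other genes follow the same order. All obese mice lay below all lean mice, with obese mouse 3 lowest and lean mouse 3 highest. The means were 5963 ± 1147 and 9719.6 ± 1721 (SD, n = 3 each), a log2 difference of −0.71 (SE 0.17, adjusted p = 0.0954 in limma) with a 95% interval from 0.471 to 0.795 of the lean level. Leaving out each mouse in turn gave −0.83 to −0.55. Whether fewer cells of a type or less RNA per cell lies behind such a value cannot be told apart in bulk tissue.

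Kcnj5 had 3279, 4577 and 4851 normalized counts on the HFD and 3743, 3321 and 5678 on the control diet. The groups overlapped across nearly their whole range. Its difference was 0.01 (SE 0.21), with an interval from 0.735 to 1.39 of the lean level, and quantile normalization turned its sign to −0.02. The ratio of Kcnj3 to Kcnj5 per kb, chosen after the values were seen, was 1.69, 1.37 and 0.875 in the obese and 1.96, 2.55 and 1.83 in the lean mice. No obese ratio reached a lean one (exact permutation p = 0.1, the smallest the design allows).

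The exons of Kcnj3 share 1621 bases, 31.1% of their length, with Gm26794, a long intergenic noncoding RNA on the opposite strand. Gm26794 had 61.3, 181 and 54.5 normalized counts in the obese and 112, 79.4 and 175 in the lean mice, a small part of the Kcnj3 level. Whether the counting used strand is not given in the sources used here. Upstream of the channel, Chrm2, the muscarinic receptor of the atrium, had 4349 ± 791 and 4355 ± 1015 normalized counts in obese and lean atria (SD, n = 3 each), a difference of 0.01. None of the 6 receptor, G protein and RGS genes listed (Chrm2, Gnai2, Gnb1, Gng2, Rgs4, Rgs6) had an unadjusted p under 0.05.

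**Figure D3:**
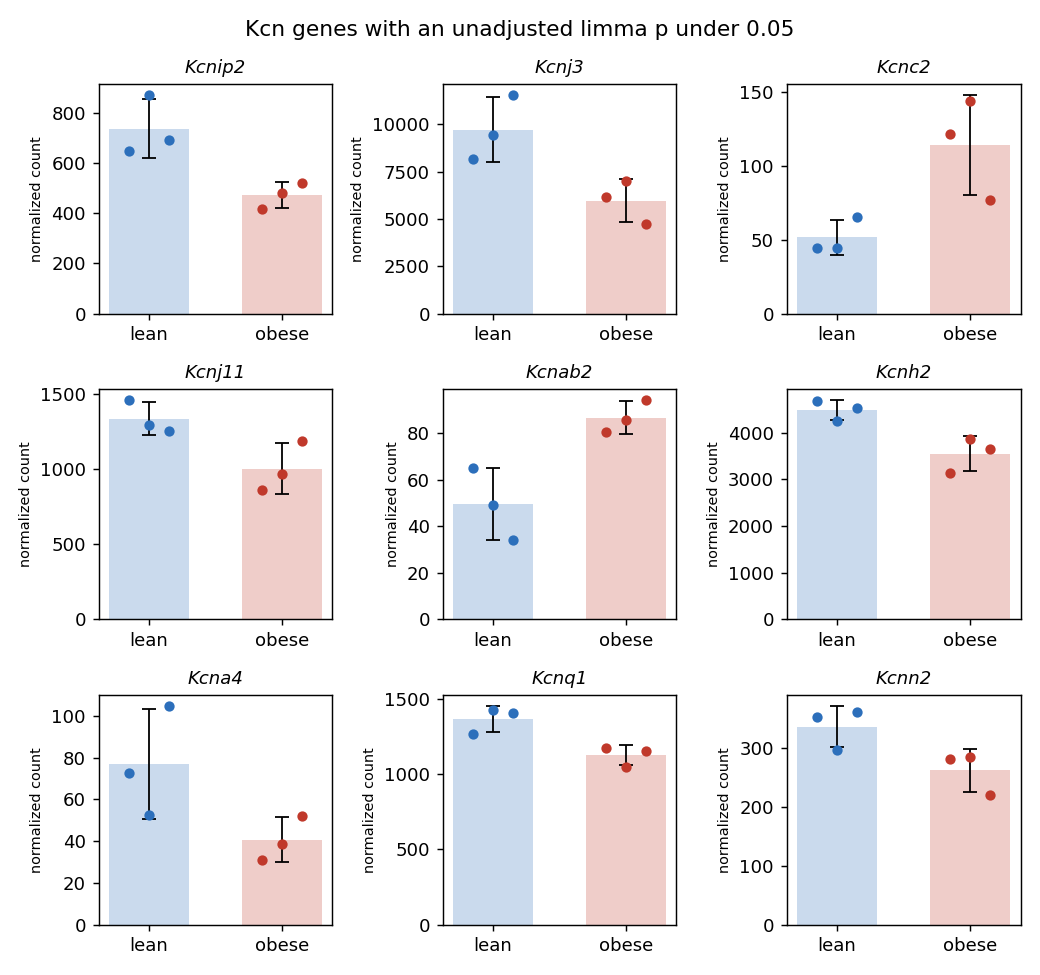
Normalized counts in each mouse (points) with the group mean (bars) and SD (error bars) for the 9 Kcn genes with an unadjusted limma p under 0.05. In each panel the 3 obese and the 3 lean points do not overlap, with obese above lean for Kcnc2 and Kcnab2 and below for the other 7.

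Kcnip2 encodes KChIP2, a calcium-binding protein that carries Kv4 channels to the membrane and slows their inactivation. It lies on chromosome 19 from 45791839 to 45816061. Kcnip2 had 417, 482 and 519 normalized counts on the HFD and 649, 872 and 689.7 on the control diet. The groups did not overlap, and lean mouse 2 was the highest. The difference was −0.63 (SE 0.15, adjusted p = 0.0886 in limma), the smallest p among the members, with an interval from 0.512 to 0.811 of the lean level. It lay between −0.72 and −0.51 with each mouse left out.

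The Kv4 pore genes that KChIP2 serves overlapped between the diets. Kcnd2 (Kv4.2) had 315, 339.6 and 215 normalized counts in the obese and 279.9, 289 and 339 in the lean mice. Its difference was −0.08 with an interval from −0.50 to 0.34, and that of Kcnd3 (Kv4.3) was −0.12 with an interval from −0.60 to 0.36. Both intervals leave room for a change to 0.705 or 1.26 of the lean level for Kcnd2 and to 0.66 or 1.29 for Kcnd3. Kcnip2 per Kcnd2 plus Kcnd3 (per kb, chosen after the values were seen) was 1.29, 1.33 and 2.33 in the obese and 2.28, 2.89 and 1.86 in the lean mice. The ratio overlapped because obese mouse 3 lay above lean mice 1 and 3 (exact permutation p = 0.3).

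Kcna4 (Kv1.4), the pore of a slowly recovering transient outward current, had 31.1, 38.8 and 52.2 normalized counts in the obese and 72.8, 52.7 and 105 in the lean mice. The groups did not overlap, but obese mouse 3 and lean mouse 2 nearly met. The difference was −0.87 (SE 0.33, adjusted p = 0.307 in limma), and 3 of the 6 fits with a mouse left out kept an unadjusted p under 0.05. Kcna5 (Kv1.5), the ultrarapid delayed rectifier, had 227, 239.7 and 265 in the obese and 149, 272 and 165 in the lean mice. Lean mouse 2 was above all obese mice, and the difference was 0.37 with an interval from −0.13 to 0.86. It was 0.63 without lean mouse 2, where the unadjusted p was under 0.05 (adjusted p = 0.316 in limma), and 0.20 without lean mouse 1.

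Kcnab2, a β subunit that binds Kv1 channels inside the cell, had 80.4, 85.7 and 94.3 normalized counts in the obese and 64.9, 49.3 and 33.9 in the lean mice. The groups did not overlap, and the lean mice were more spread than the obese ones. The difference was 0.85 (SE 0.28, adjusted p = 0.237 in limma), with an unadjusted p under 0.05 in all 6 fits with a mouse left out. Its relative Kcnab1 differed by 0.24 with an interval from −0.94 to 1.41.

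Among the delayed rectifiers, Kcnh2, which encodes the ERG1 channel, had 3140.3, 3873 and 3643 normalized counts in the obese and 4669, 4242 and 4532 in the lean mice. All obese mice were below all lean mice, obese mouse 1 most of all. The difference was −0.34 (SE 0.12, adjusted p = 0.25 in limma), an interval from 0.662 to 0.944 of the lean level. Kcnq1 had 1174, 1051 and 1157 in the obese and 1269.7, 1429 and 1409 in the lean mice, again without overlap. Its difference was −0.28 (SE 0.11, adjusted p = 0.346 in limma). Its exons share 121 bases (2.96%) with Kcnq1ot1, the imprinted noncoding RNA read from the other strand, whose own difference was 0.02. Kcne1, the small subunit that slows Kcnq1 channels, stayed under the filter, with 1.02 to 14.4 normalized counts over the 6 mice.

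The ATP-sensitive channels open when cellular energy falls, and pair a Kir6 pore with a sulfonylurea receptor. Kcnj11 (Kir6.2), on chromosome 7 from 46098725 to 46099897, had 856, 965 and 1184 normalized counts in the obese and 1457, 1291 and 1252 in the lean mice. Obese mouse 3 came close to lean mouse 3, but the groups did not overlap. The difference was −0.42 (SE 0.14, adjusted p = 0.23 in limma), an interval from 0.603 to 0.924 of the lean level. Kcnj8 (Kir6.1), the pore of vascular cells, had 365, 382 and 292 in the obese and 396, 396 and 372 in the lean mice. It overlapped in obese mouse 2, with a difference of −0.17. The receptors Abcc8 and Abcc9 differed by −0.12 and −0.17 and overlapped. Kcnj11 relative to both receptors and relative to Kcnj8 overlapped too (exact permutation p = 0.3 and 0.4).

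**Figure D4:**
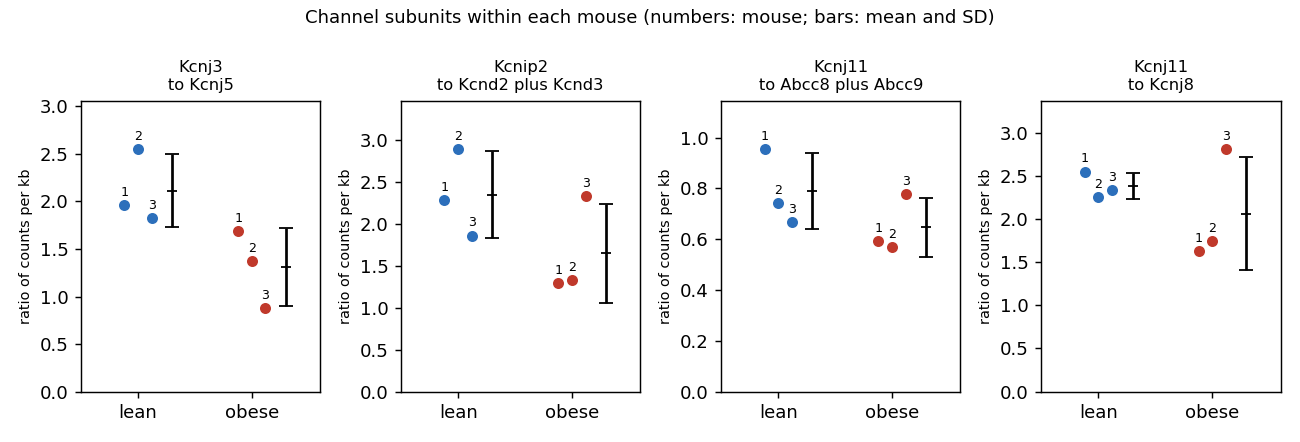
Ratios between channel subunits within each mouse, per kb of exon, for Kcnj3 to Kcnj5, Kcnip2 to Kcnd2 plus Kcnd3, Kcnj11 to Abcc8 plus Abcc9, and Kcnj11 to Kcnj8 (numbers mark the mouse, bars the mean and SD of 3 mice). The obese and lean ratios are apart for Kcnj3 to Kcnj5 (0.875 to 1.69 against 1.83 to 2.55) and overlap in the other panels, where obese mouse 3 is the highest obese ratio. The scale of both Kcnj11 ratios rests on its uncertain exon length, which does not change their overlap.

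The classical inward rectifiers set the resting potential. Kcnj2 (Kir2.1) had 1376, 1329 and 722 normalized counts in the obese and 815, 767 and 1091 in the lean mice. Obese mice 1 and 2 were above every lean mouse and obese mouse 3 was below every one. The difference was 0.32 (SE 0.24), and without obese mouse 3 it was 0.62 (adjusted p = 0.0839 in limma). Kcnj12 (Kir2.2) differed by 0.19 and overlapped. Kcnj4 and Kcnj14 (Kir2.3 and Kir2.4) were under the filter, Kcnj14 with 14.1, 3.06 and 4.54 in the obese and 12.3, 13 and 8.74 in the lean mice.

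Among the 2-pore channels, which leak potassium at rest, no tested member of 5 had an unadjusted p under 0.05. Kcnk3, the highest member, had 5846, 7074 and 9103 normalized counts in the obese and 8630.4, 9149 and 9258 in the lean mice. Obese mice 1 and 2 lay below the lean mice and obese mouse 3 between them. The difference was −0.32 (SE 0.15, adjusted p = 0.447 in limma). It was −0.49 without obese mouse 3 and −0.17 without obese mouse 1, and passed an unadjusted p of 0.05 without obese mouse 3, under quantile normalization and with mitochondrial genes left out. Kcnk2 (TREK-1, opened by stretch) differed by −0.61 with an interval from −1.45 to 0.22, and Kcnk6 by 0.25. Kcnk1 (TWIK-1) had 2.27 to 6.72 normalized counts and was not tested. Outside this family, the voltage-gated modifier subunit Kcng2 differed by −0.20.

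The small-conductance channels open with cytosolic calcium. Kcnn2 (SK2), on chromosome 18 from 45268860 to 45686024, had 282, 285 and 220.4 normalized counts in the obese and 352, 296 and 362 in the lean mice. The groups did not overlap, although lean mouse 2 was close to obese mouse 2. The difference was −0.36 (SE 0.16, adjusted p = 0.396 in limma), and 3 of the 6 fits with a mouse left out kept an unadjusted p under 0.05. Kcnn1 (SK1) differed by −0.04, with an interval from −0.36 to 0.29. Kcnn3 (SK3) at a mean of 9.82 and Kcnma1 (the large-conductance BK channel) at 8.28 were just under the filter.

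Kcnc2 (Kv3.2), best known from fast-firing neurons, had the largest positive difference among the tested members. It lies on chromosome 10 from 112271123 to 112466304. Kcnc2 had 122, 144 and 77.2 normalized counts in the obese and 44.8, 44.5 and 65.6 in the lean mice. The groups did not overlap, and obese mouse 3 came closest to the lean mice. The means were 114 ± 33.9 and 51.6 ± 12.1 (SD, n = 3 each), a difference of 1.11 (SE 0.29, adjusted p = 0.121 in limma). Without obese mouse 3 it was 1.36 with an adjusted p of 0.0351 in limma. The summed neuron list (Th, Dbh, Chat, Prph, Snap25) was 596, 149 and 189 in the obese and 537, 340.1 and 320.3 in the lean mice, with Chat at 0 in some mice, and did not rank the mice as Kcnc2 did. The part of neurons in the Kcnc2 result was not tested.

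Kcnv2, a silent modifier subunit of voltage-gated channels, had 394, 423 and 195 normalized counts in the obese and 214, 219.7 and 249 in the lean mice, and is named because of its values. Its difference of 0.49 (adjusted p = 0.499 in limma) became 0.84 (adjusted p = 0.0232) without obese mouse 3, which lay below all lean mice. The fit without that mouse called 2.08% of all genes tested. Kcne4, an inhibitory single-span subunit, also named after its values were seen, had 63.3, 66.3 and 54.5 in the obese and 41.4, 43.8 and 45.9 in the lean mice. It did not overlap, with a difference of 0.48 (SE 0.25, adjusted p = 0.502 in limma).

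**Figure D5:**
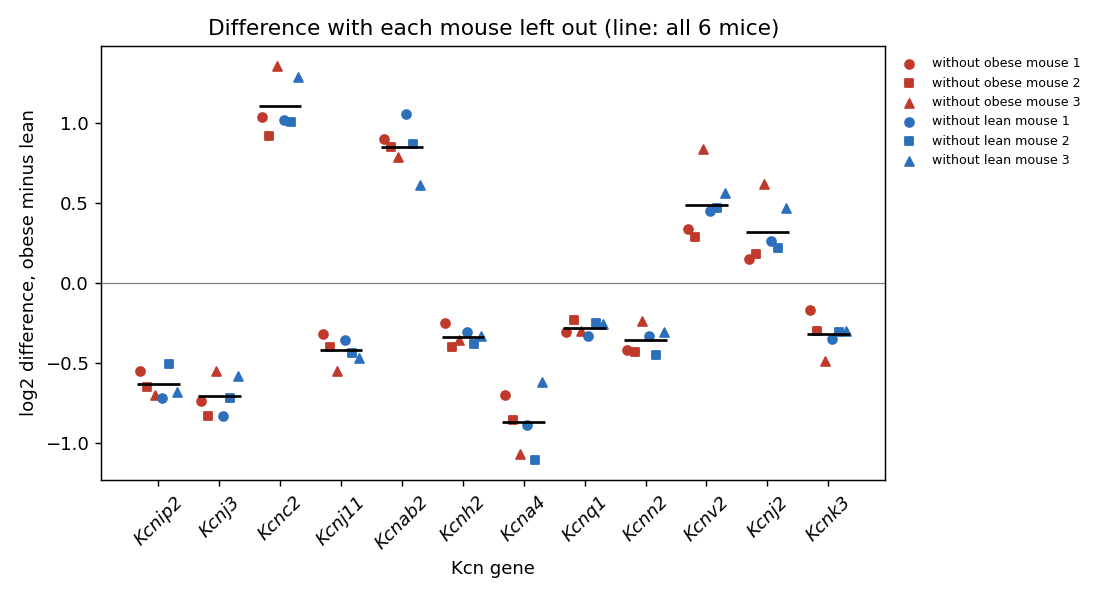
Log2 difference, obese minus lean, of 12 Kcn genes with each of the 6 mice left out in turn (markers; colour gives the group of the mouse left out). All fits of a gene stay on one side of zero, and leaving out obese mouse 3 moves Kcnv2 and Kcnj2 the farthest up, to 0.84 and 0.62.

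Obese mouse 3 stood apart for several members. It was more than 1.5-fold below both other obese mice for 10 of 47 tested members. Among them were Kcnc2, Kcnv2, Kcnj2, Kcnk2, Kcna2, Kcnab1, Kcnmb1, Kcnt1 and Kcnab3. No member was more than 1.5-fold above both. Counting both directions, 21.3% of members and 11.5% of all genes tested were that far from the other obese mice in this mouse. The members exceeded all genes by this measure in the other mice too, each set against the other mice of its diet. The shares were 17% against 7.15% in lean mouse 2 and 12.8% against 6.57% in obese mouse 2. In the remaining 3 mice they were 8.51% to 10.6% against 6.27% to 6.99%. These shares were not matched for level. A mean from 10 to 100 was held by 23 of the 47 members and by 4444 of the 15275 genes tested. The median standard error was widest there (0.50 and 0.41), so the excess cannot be told apart from a difference in level. The sinus node list (Hcn4, Shox2, Tbx3, Isl1, Vsnl1) summed to 599 in obese mouse 3 and 961 and 1281 in the other obese mice. In the lean mice it summed to 879, 758 and 1023. The list was not uniform. Among the obese mice, Shox2, Tbx3, Isl1 and Vsnl1 were lowest in obese mouse 3, whereas Hcn4 was lowest in obese mouse 1 (84.4, against 108 in obese mouse 3). The part of tissue makeup in this pattern was not tested.

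Under the filter, 48 members had low counts. Kcnrg, which encodes a protein that interferes with the assembly of voltage-gated channels, is named because of its values. It had no read in the 3 obese mice and 5, 21 and 11 reads in lean mice 1, 2 and 3. Among the other members under the filter, Kcnh6 and Kcnh8 also lay below the lean mice without overlap, and Kcnj6 above them. The lean mean of Kcnrg was 10.7 ± 4.54 normalized counts (SD, n = 3). That mean was 3.13 times the highest floor of 3 reads in the obese libraries (3.41). Lean mouse 1, at 5.6 normalized counts, lay nearer that floor, so the ratio is no lower bound for each mouse. Without the filter Kcnrg was the one member called (adjusted p = 0.0419 in limma), in a fit whose difference depends on the pseudocount. Of the 3 highest members under the filter, Kcnn3 and Kcnj14 are given above, and Kcnq3 (an M-current subunit of neurons) had 31.1, 1.02 and 1.14 on the HFD and 13.4, 6.16 and 1.09 on the control diet. Kcnip4, chosen after its values were seen, had 32.1, 3.06 and 0 on the HFD and 6.72, 1.37 and 3.28 on the control diet. Both were highest in obese mouse 1, the mouse with the highest neuron list sum of 596. In that list Th, Chat, Prph and Snap25 were highest in obese mouse 1, whereas Dbh was lowest there (57.3). The part of neurons in these counts was not tested.

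Several lists of cell type markers held genes that differed between the diets. The atrial myocyte list (Myl7, Myl4, Nppa, Sln, Bmp10, Sbk2) summed to 287590.2, 288452 and 520943 normalized counts on the HFD and to 485424, 484676 and 445759 on the control diet. All 6 genes were tested, with 3 lower at an unadjusted p under 0.05. Sbk2 fell by 1.08 (adjusted p = 0.0027 in limma). In obese mouse 3 the atrial sum was the highest of all mice while Kcnj3 was the lowest of all mice. That sum is mostly Nppa (333975 of 520943 in obese mouse 3), and the list was not uniform, since Sbk2 was at its lowest in obese mouse 3 (2368) and Sln (19799) was below every lean mouse there. Kcnk3 and Kcnj11 were higher in obese mouse 3 than in the other obese mice. The part of myocyte content in the Kcn differences was not tested.

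The fat markers were mixed. The white adipocyte list (10 genes) summed to 93867, 84695 and 50022 in the obese and 56075, 57527 and 51906 in the lean mice, mostly Lpl, with obese mouse 3 below every lean mouse. At an unadjusted p under 0.05, 3 genes were higher, of which Lipe rose by 1.56 (adjusted p = 0.0171 in limma). The adipocyte genes Adipoq, Plin1, Cidec and Retn differed by 0.66, 0.45, 0.64 and 0.03 and Lep by −1.41, with adjusted p of 0.526 or more in limma. The brown adipocyte list summed to 1283, 616 and 1276 against 330.3, 239 and 187. Its 3 tested genes were all higher, and Ucp1 and Cidea rose (adjusted p = 0.0446 and 0.031 in limma), while Elovl3 was at 0 in some mice. The macrophage list summed to 2488 to 3015 in lean and 3017 to 3251 in obese atria, and 1 of 5 genes, Itgam, rose (adjusted p = 0.0106 in limma). The endothelial list ran from 16084 to 16937 in obese and from 13878 to 14247 in lean atria. Only 1 of its 6 genes, Pecam1, had an unadjusted p under 0.05 (0.57, adjusted p = 0.0504 in limma). Its other genes differed by −0.19 (Egfl7) to 0.16 (Tie1). In the pericyte and smooth muscle list the sums were 11332 to 11846 against 9659 to 10995. There Rgs5, Pdgfrb and Cspg4 differed by 0.06, −0.12 and −0.01, and Myh11, Cnn1 and Acta2 by 0.37, 1.08 and 0.54. The Schwann cell list ran from 349.8 to 500.3 against 529 to 689, with 4 of 4 genes below zero. The fibroblast (32139 to 36944 over all mice), mesothelial (1144 to 1811) and ventricular myocyte (6882 to 17399, highest in lean mouse 2) sums overlapped. No lymphocyte marker passed the filter, and Cd3d and Ms4a1 were at 0 in some mice. None of these lists was tested as a cause of a Kcn result.

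Of 32 partner genes of the channels (receptors, anchors, trafficking and transcription factors), 28 were tested. An unadjusted p under 0.05 was found for 7 (25%, against 12.2% of all genes tested), 2 lower (5.55% of all genes) and 5 higher (6.66%). The median difference was 0.03. The list was chosen with earlier results of these data known, so its share is a description and no result about channel partners. Hopx, a homeodomain protein that acts without binding DNA, had 1382, 1303 and 1858 normalized counts in the obese and 2629, 3251 and 2582 in the lean mice. It fell by 0.91 on the log2 scale (SE 0.15, adjusted p = 0.031 in limma), but among the fits with a mouse left out it passed only without obese mouse 3 (adjusted p = 0.00343). Lrrc38, an accessory γ subunit of the BK channel, had 47.2, 42.8 and 22.7 in the obese and 90.7, 105 and 70 in the lean mice, a difference of −1.26 (SE 0.33, adjusted p = 0.12 in limma). Klf15, a transcription factor known to drive Kcnip2 in mouse heart, had 1337, 1122 and 902 in the obese and 728, 814 and 521 in the lean mice. Klf15 lay above the lean range, with a difference of 0.71 (SE 0.19, adjusted p = 0.129 in limma). The part of Klf15 in the Kcnip2 result was not tested. The others were the anchoring proteins Akap9 (0.29), Dlg1 (0.31) and Flna (0.32) and the kinase Sgk1 (0.28), with adjusted p in limma between 0.336 and 0.401.

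The promoters of the 3 members with the smallest p in limma are shown, which are also the 3 that DESeq2 called. Each window runs from 250 bases before to 50 after a transcription start in RefSeq (GRCm38.p6), read 5′ to 3′ on the strand of the gene. Capitals mark the GC box GGGCGG, the KLF core CACCC, the E-box CACGTG, the TATA letters TATAAA and the glucocorticoid receptor half-site AGAACA, on either strand. No motif contains another, though matches of the GC box and the KLF core can share bases.
Kcnip2 (chr19:45816014-45816313, − strand): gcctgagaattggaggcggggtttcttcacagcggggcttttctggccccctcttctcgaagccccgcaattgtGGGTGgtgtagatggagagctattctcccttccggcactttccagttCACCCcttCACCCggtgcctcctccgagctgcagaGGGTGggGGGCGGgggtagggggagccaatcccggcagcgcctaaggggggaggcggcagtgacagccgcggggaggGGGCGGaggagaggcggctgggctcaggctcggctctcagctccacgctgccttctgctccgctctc
Kcnj3 (chr2:55435720-55436019, + strand): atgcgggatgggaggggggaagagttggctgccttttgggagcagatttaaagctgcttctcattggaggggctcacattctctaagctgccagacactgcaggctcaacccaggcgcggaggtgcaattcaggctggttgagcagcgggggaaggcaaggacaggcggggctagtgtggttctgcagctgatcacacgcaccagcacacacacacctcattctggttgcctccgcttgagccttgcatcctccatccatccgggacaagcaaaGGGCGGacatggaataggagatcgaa
Kcnc2 (chr10:112270873-112271172, + strand, 1 of 4 listed windows, the one whose start is that of the deposited gene): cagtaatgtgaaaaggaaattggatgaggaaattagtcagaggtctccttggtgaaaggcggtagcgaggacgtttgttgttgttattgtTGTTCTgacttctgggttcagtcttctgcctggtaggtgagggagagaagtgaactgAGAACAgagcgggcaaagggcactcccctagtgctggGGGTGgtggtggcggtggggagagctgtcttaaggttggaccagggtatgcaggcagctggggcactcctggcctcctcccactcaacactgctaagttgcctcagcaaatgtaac
The Kcnip2 window holds 2 GC boxes and 4 KLF cores, the Kcnj3 window 1 GC box and no other motif, and the Kcnc2 window 1 KLF core and 2 half-sites. Among all 32851 RefSeq promoter windows, 35.7% held a GC box, 57.5% a KLF core, 7.15% an E-box, 13.6% the TATA letters and 19% a half-site. Among the 95 windows of 70 Kcn genes the shares were 47.4%, 77.9%, 7.37%, 5.26% and 16.8%. The median GC content was 58% in the Kcn windows and 52.7% in all windows. Such letters are matches by sequence and no evidence of binding.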

How the data were processed

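RNA of atria from 3 obese and 3 lean mice was sequenced as single-end reads from directional libraries. Per the methods, the authors aligned reads with STAR to GRCm38, kept unique alignments and assigned them to Ensembl genes with Salmon. The deposited signal per gene and mouse is the read count divided by 1 DESeq2 size factor per library. The authors' own fold changes and p-values in the same table were not used. In each library 100% of the values were whole multiples (tolerance 0.01) of the smallest one, which gave the reads. 1 row naming no gene was left out. GENCODE names matched 42462 of 43432 identifiers (97.8%), and exon lengths came from GENCODE.

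Groups were compared with limma 3.58.1 (R 4.3.3, lmFit and eBayes with a variance trend, no covariate, all 6 mice) on log2(value + 1), mean at least 10, threshold 0.05. Intervals are 95% from the same fit. Alternatives were quantile normalization, no variance trend, no filter, a pseudocount of 0.1, mitochondrial genes left out, a replicate block, each mouse left out, edgeR 4.0.16 and DESeq2 1.42.0 on recovered reads, and, chosen after seeing the data, TMM scaling. Members, gene lists and tests were chosen with earlier results of these data known. Named are members with an unadjusted p under 0.05, those of the known atrial currents, the 5 highest and the 3 highest under the filter, and partner genes with an unadjusted p under 0.05, unless the text says otherwise. A few named items are not reported here. The fits were tested on simulated data.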

Additional observations from a re-analysis of the deposited data

How the results depend on the processing

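Without a variance trend limma called 0 of all genes tested, with 1717 at an unadjusted p under 0.05, and DESeq2 called 470 (edgeR 87). With each mouse left out the number ran from 14 to 318. The number of Kcn genes called was 1 without the filter (Kcnrg, with 135 of 24679 genes called) and 3 with DESeq2. It ran from 0 to 2 with a mouse left out. The 2 were Kcnc2 and Kcnv2 without obese mouse 3, a fit that called 318 of all genes tested (2.08%). The number with an unadjusted p under 0.05 ran from 5 (without lean mouse 1) to 12 (without obese mouse 3), where all genes gave 1483 and 2216. The median difference ran from −0.157 to −0.054 with a mouse left out and was −0.046 with edgeR and −0.044 with DESeq2. Hopx lost its call without the variance trend. Signs turned for Kcnj5 at −0.02 (quantile), −0.01 (edgeR) and 0 (DESeq2) and for Kcnq1ot1 at 0 (quantile). With a mouse left out the ranges crossed zero for Kcnab1 (−0.20 to 0.70), Kcnd2 (−0.21 to 0.12), Kcnd3 (−0.29 to 0.09), Kcnj5 (−0.14 to 0.24), Kcnn1 (−0.13 to 0.04) and Kcnq1ot1 (−0.06 to 0.15). The cause was not tested. At under 100 normalized counts the median standard error of the members was 0.50, against 0.15 at 1000 or more (0.41 and 0.13 over all genes).

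The mouse numbers are shared by different animals, and same-numbered mice did not deviate together (correlations 0.12, −0.03 and 0). With the number as a replicate block 157 of all genes and 0 Kcn genes were called, 7 Kcn genes and 1714 of all genes had an unadjusted p under 0.05 and the median difference was −0.078.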
